A study of Mus musculus with 24 samples.

Results

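Unsorted mammary cells of Snai2 null mice were compared with the luminal, basal and stromal cells sorted from null glands, to find genes whose RNA was more abundant in the unsorted cells than in every sorted fraction. The comparison takes the 3 arrays labelled null unsorted and the 9 arrays labelled null luminal, null basal or null stromal, 12 of the 24 arrays in the series. For each gene the mean of the unsorted arrays was set against the highest of the 3 sorted means. The mice were female and carried the LacZ/LacZ genotype of SNAI2 that the labels call null, and the sort used the surface proteins CD49f and Epcam. The other 12 arrays hold the same 4 populations from SNAI2+/+ (WT) females, 3 arrays each. The sources used here do not give age, strain, reproductive stage or how the glands were dissociated. Nothing in the labels states that a group's arrays are separate animals, and p-values therefore cover the spread among these samples, which could be technical.

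Snai2 encodes Slug, a zinc finger repressor of the Snail family that is known in the mammary gland as a factor of basal epithelial cells. CD49f is an integrin chain of cells that attach to the basement membrane, and Epcam is an adhesion protein of epithelial cells. A gate on both separates luminal epithelium, basal epithelium and stroma, and a gland also holds blood and lymph vessels, macrophages and other leukocytes, adipocytes, nerve and blood cells. Endothelial cells line vessels and carry junction proteins, vascular growth factor receptors and, when activated, selectins that capture leukocytes from blood. Tissue macrophages are recognised by complement C1q, the receptor of colony stimulating factor 1 and scavenger receptors.

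All values are log2 intensities after background correction and quantile normalization, and a difference of 1 is a doubling of intensity. Raw median intensity ranged from 93.58 to 143.71 over the 24 arrays, and from 12634 to 15825 of 25697 probes were detected. Snai2 and Epcam had 0 probes, so neither the genotype nor the Epcam gate could be checked on the arrays. Itga6, which encodes CD49f, had means of 9.76 in null basal, 8.85 in null luminal, 8.81 in null unsorted and 6.03 in null stromal cells. All 24 tested fibroblast genes had their highest null mean in stromal cells, all 17 basal genes in basal cells, and 18 of 22 luminal genes in luminal cells. The third principal component, with 9.65% of the variance, divided the arrays along a line found in no label. Its negative side held all 3 null unsorted arrays, replicates 2 and 3 of each null sorted fraction and replicate 3 of each WT population.

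The null unsorted arrays were unlike each other. Replicate 3 had higher levels of fibroblast and immune genes than replicates 1 and 2. The mean level of the fibroblast list was 7.80, 8.03 and 9.66 in unsorted replicates 1, 2 and 3, and that of the leukocyte list was 5.44, 5.80 and 6.90. All 24 fibroblast genes and 18 of 19 leukocyte genes had their highest unsorted value in replicate 3. Across all tested genes, replicate 3 correlated at 0.916 with the mean luminal and 0.923 with the mean stromal profile, whereas replicate 1 was at 0.954 and 0.842 and replicate 2 at 0.940 and 0.847. In such mixtures fewer cells of a type and less RNA per cell cannot be told apart.

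Of the 4 null group means, the highest was that of luminal cells for 30% of genes, of basal and stromal cells for 27.5% each and of unsorted cells for 14.9%. Of 12549 genes tested, 5 were higher in null unsorted cells than in every sorted fraction, which is 0.0398% of the genes, and 0 (0%) were lower than every fraction. They were Sele, Selp and Flt1, known for their expression in vascular endothelium, Csf2rb2, a cytokine receptor chain, and Tyrobp, a signalling adaptor of myeloid cells. In each of the 5 the 3 unsorted arrays lay above all 9 sorted arrays, as they did in 0.837% of all genes. The test that picked the 5 used the same arrays, so this order is a description and adds no support. At an unadjusted p under 0.05, 132 genes passed in either direction. The test asks that all 3 differences have 1 sign and takes the largest of their p-values (limma, Benjamini-Hochberg adjusted over all genes). Flt1 passed in each of the 34 alternative settings that kept this rule, Tyrobp in 23, Selp and Csf2rb2 in 19 and Sele in 16. The count was 12 with the replicate number as a block, 32 when each pairwise adjusted p had to pass on its own and 1 with no detection filter. The block added Ccl4, Cdh5, Ctss, Gpm6a, Rasip1, Tmem252 and Upp1 to the 5. The count was also 1 without null unsorted replicate 1, any null luminal replicate, null basal replicate 2, null stromal replicate 3 or WT luminal replicate 1. It was 2 without null unsorted replicate 3 or null stromal replicate 2, and 3 without null unsorted replicate 2, null basal replicate 1, null stromal replicate 1 or WT unsorted replicate 2. Within the negative side of the third component 5 genes passed as well, of which Flt1 and Selp were shared, and the differences there were 2.37 for Sele, 2.34 for Tyrobp and 1.57 for Csf2rb2.

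Sele and Selp encode E-selectin and P-selectin, adhesion receptors by which vessel walls capture leukocytes, and they lie close together on chromosome 1. Sele was at 8.71, 8.49 and 8.92 in the null unsorted arrays. It was at 5.53, 6.31 and 6.35 in luminal, 5.16, 5.83 and 5.82 in basal and 5.51, 5.51 and 6.78 in stromal arrays. The lowest unsorted array thus stood clear of the highest sorted array, a stromal one. The unsorted mean exceeded the highest sorted mean, that of luminal cells, by 2.64 ± 0.47 (SE, 6.23-fold, adjusted p = 0.0409). Selp was at 9.92, 10.18 and 9.87 in unsorted arrays, against 7.56, 8.03 and 8.03 in luminal, 6.27, 7.57 and 7.70 in basal and 7.42, 7.92 and 8.10 in stromal arrays. The sorted arrays of the 3 fractions overlapped each other and none reached an unsorted array. Its difference was 2.12 ± 0.37 (4.34-fold, adjusted p = 0.0351). P-selectin is also stored in platelets. Of 8 tested platelet genes 2 had their highest mean in unsorted cells (25%, against 14.9% of all genes). Differences of the 8 genes ranged from -1.34 to 1.20, with a median of -0.37, against -0.33 over all genes. A platelet source of Selp was not tested.

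Flt1 encodes a receptor of vascular endothelial growth factor. It was at 6.90, 7.28 and 6.82 in unsorted arrays and at 4.42, 4.44 and 4.98 in luminal, 4.62, 4.86 and 4.54 in basal and 4.44, 4.58 and 4.83 in stromal arrays. All 9 sorted values were near the floor of the array: the probe was detected on 1 of 3 luminal, 0 of 3 basal and 1 of 3 stromal arrays. The difference over the highest fraction, basal cells, was 2.32 ± 0.31 (adjusted p = 0.0038). Because the probe was not above background in basal cells, the change there is at least 4.13-fold. A second, dimmer probe for Flt1 gave a difference of 0.66.

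The promoters of these 3 genes are shown because the genes were high in the same arrays. Each is the stretch of 250 bases before the annotated start in RefSeq (GRCm38.p6), written 5′ to 3′ along the gene, with capitals at matches to AGGAAG on either strand (the core read by ETS factors) and to TATAAA on the gene's strand (the TATA box).
Sele promoter, chr1:164047984-164048233, plus strand: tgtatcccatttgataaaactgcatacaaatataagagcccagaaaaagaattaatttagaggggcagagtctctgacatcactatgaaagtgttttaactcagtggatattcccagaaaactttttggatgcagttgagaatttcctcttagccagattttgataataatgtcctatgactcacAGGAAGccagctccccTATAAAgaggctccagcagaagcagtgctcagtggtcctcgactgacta
Selp promoter, chr1:164115014-164115263, plus strand: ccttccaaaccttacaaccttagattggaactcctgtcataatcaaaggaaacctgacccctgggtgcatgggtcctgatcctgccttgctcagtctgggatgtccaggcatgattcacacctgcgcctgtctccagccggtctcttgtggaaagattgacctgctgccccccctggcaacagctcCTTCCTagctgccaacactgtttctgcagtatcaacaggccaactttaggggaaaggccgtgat
Flt1 promoter, chr5:147726012-147726261, minus strand: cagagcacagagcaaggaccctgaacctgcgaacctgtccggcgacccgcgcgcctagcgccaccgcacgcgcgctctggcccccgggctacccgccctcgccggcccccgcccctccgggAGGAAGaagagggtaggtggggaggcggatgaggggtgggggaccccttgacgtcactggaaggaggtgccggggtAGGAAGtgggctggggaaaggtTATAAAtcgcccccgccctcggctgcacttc
Counted from the start, AGGAAG in either orientation began at -65 in Sele, at -64 in Selp and at -129 and -53 in Flt1. TATAAA began at -49 in Sele and at -31 in Flt1. Of 27025 RefSeq promoters of the same length, 29.2% held AGGAAG and 8.13% TATAAA. A match is a description of the letters and not a binding site.

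Csf2rb2 encodes a mouse receptor chain for interleukin 3 that is nearly identical to the shared beta chain encoded by Csf2rb, so which of them a probe reads is uncertain. Csf2rb2 was at 6.79, 6.22 and 6.86 in unsorted arrays, 4.51, 4.38 and 4.86 in luminal, 4.37, 4.74 and 5.36 in basal and 5.27, 4.53 and 4.72 in stromal arrays. The difference was 1.78 ± 0.30 over stromal cells (3.44-fold, adjusted p = 0.0351). Csf2rb, named after its values were seen, had a difference of 1.16 (adjusted p = 0.293), and its 3 unsorted arrays also lay above all sorted arrays. Tyrobp, whose protein carries signals from activating receptors of macrophages and natural killer cells, was at 7.89, 7.67 and 8.96 in unsorted arrays. Its sorted values were 6.31, 5.56 and 5.89 in luminal, 4.62, 4.58 and 5.19 in basal and 6.43, 6.58 and 5.09 in stromal arrays. Unsorted replicate 3 stood highest, and the gap between the groups was about 1 unit. The difference was 2.14 ± 0.36 over stromal cells (4.41-fold, adjusted p = 0.0351).

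**Figure D1:**
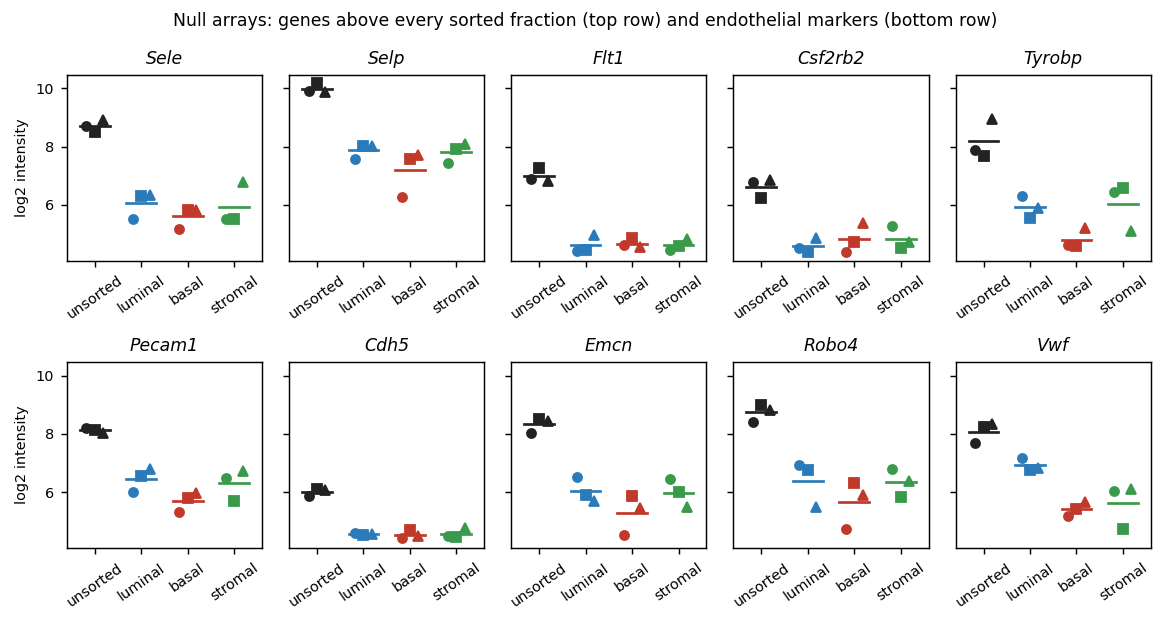
Log2 intensity on the 12 null arrays of the 5 genes higher in unsorted cells than in every fraction (top) and of 5 endothelial genes (bottom), with the populations on the x axis. Circles, squares and triangles are replicates 1, 2 and 3 and bars are group means. In all 10 panels the 3 unsorted points lie above the 9 sorted points, for Cdh5 from 5.86 to 6.10 against 4.41 to 4.76. The top genes were picked by a test on these arrays. The bottom genes are among the 17 of 27 endothelial genes with this order (63%, against 0.837% of all genes). Vwf was named after its values were seen.

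Blood vessel genes were high on all 3 unsorted arrays. Of 27 endothelial genes, all tested, 20 had their highest null mean in unsorted cells (74.1%, against 14.9% of all genes), and in 17 (63%, against 0.837% of all genes) the 3 unsorted arrays lay above all 9 sorted arrays. The median difference from the highest fraction was 1.07, and over all genes it was -0.33. Without background correction both were nearer to 0, at 0.56 and -0.18. The mean level of the list was 7.05, 7.34 and 7.42 in the unsorted arrays and between 5.21 and 6.61 in the sorted ones, without the step in replicate 3 that immune and fibroblast genes had. When any 1 array was left out, 20 or 21 of the genes had their highest mean in unsorted cells. Flt1 was the member that passed the test over all 3 fractions (0.0398% of all genes passed).

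In the fit of all 24 arrays without a block the 4 defining endothelial markers did not pass over all 3 fractions, and in each the unsorted arrays lay above every sorted array. Pecam1, the junction protein CD31, was at 8.21, 8.12 and 8.04 in unsorted arrays and reached at most 6.78 in luminal, 5.96 in basal and 6.74 in stromal arrays. The difference was 1.68 ± 0.50 (adjusted p = 1). Cdh5, vascular endothelial cadherin, was at 5.86, 6.10 and 6.09 in unsorted arrays and between 4.41 and 4.76 in the sorted arrays, none of which detected it. Its change was at least 2.16-fold over stromal cells (1.44 ± 0.32, adjusted p = 0.282). Cdh5 did pass in the fit of the 12 null arrays (adjusted p = 0.00841) and with the replicate block (adjusted p = 0.0218), within a range from 0.00841 to 1 over the alternatives. Emcn, an endothelial sialomucin, was at 8.04, 8.52 and 8.43 against sorted values from 4.54 to 6.51, a difference of 2.29 ± 0.64 (adjusted p = 0.873). Emcn passed within the negative side of the third component (2.53, adjusted p = 0.026), and its adjusted p reached 1 in other settings. Robo4, a vascular guidance receptor, was at 8.39, 8.98 and 8.83 against 4.74 to 6.92 (2.34 ± 0.88, adjusted p = 1), and Tie1, an orphan receptor kinase of endothelium, was at 4.92, 5.19 and 5.35 against 4.36 to 4.63 (0.58 ± 0.25, adjusted p = 1). The SE is estimated over all 8 groups, WT included. For Emcn the SD within groups was 0.25 to 0.68 in null cells, 1.10 in WT basal and 1.69 in WT stromal cells. In the fit of the 12 null arrays Emcn (adjusted p = 0.0517), Pecam1 (adjusted p = 0.0939) and Tie1 did not pass. Why these markers did not pass was not tested.

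Against single fractions more endothelial genes passed. In unsorted cells 20 of the 27 were higher than in basal cells (5.04% of all genes were), 8 were higher than in luminal cells (2.17%) and 9 were higher than in stromal cells (8.65%). Cdh5, Sox17 and Plvap are examples, and their differences did not follow the order of these counts. Cdh5 passed against luminal (1.46, adjusted p = 0.0143), basal (1.48, adjusted p = 0.00448) and stromal cells (1.44, adjusted p = 0.00306). Sox17, a transcription factor of arteries, also passed all 3 contrasts, by 2.98, 2.93 and 2.17 in that order. Plvap, a protein of capillary pores, passed against luminal (1.99) and basal cells (2.51) and was 1.07 over stromal cells (adjusted p = 0.0817). Sox17 and Plvap were named after their values were seen.

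Some endothelial genes did not have their highest mean in unsorted cells. Cd34, Ly6c1 and Tek were lower in unsorted than in stromal cells, by -1.80 (adjusted p = 0.000407), -1.63 (adjusted p = 0.00266) and -1.62 (adjusted p = 0.0221). Tek, the angiopoietin receptor Tie2, was at 8.43, 8.16 and 8.25 in stromal arrays and at 6.24, 6.05 and 7.71 in unsorted arrays, and it was between 4.42 and 5.03 in the epithelial fractions. Cd34 and Ly6c1 encode surface proteins that fibroblasts also carry, and which cells gave their signal here was not tested. Ramp2 (9.19 in stromal and 8.03 in unsorted cells) and Eng (6.34 and 5.94) also had their highest mean in stromal cells, Podxl in luminal cells (8.84, against 8.13) and Nos3 in basal cells (5.38, against 5.22). These 7 were named after their values were seen.

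A total of 10 genes, 0.0797% of those tested, were detected on all 3 null unsorted arrays and on 0 of the 9 null sorted arrays. Detection is read from the same intensities, and the filter on detection asked for 3 arrays, which the 3 unsorted arrays meet by themselves, so the count is a description. They were Cdh5 and Tie1 of the endothelial list, and Cybb, Mmp12, Fcgr4, Cd207, Btnl9, Gbp4, Ntn5 and Tlr11. Cybb is the phagocyte oxidase subunit, Mmp12 a macrophage elastase, Fcgr4 an antibody receptor of mouse myeloid cells and Cd207 the langerin of Langerhans cells. Cybb was 1.33 above the highest fraction (at least 1.85-fold, adjusted p = 0.126) and Mmp12 1.10 (at least 1.65-fold, adjusted p = 0.873). The levels were low, from 4.89 for Tlr11 to 6.01 for Cdh5, and Tlr11 was only 0.08 above the highest fraction. In WT cells 43 genes (0.343%) met the same rule, and 1 gene, Mmp12, met it in both genotypes. The genes of this paragraph other than Cdh5 and Tie1 were named after their values were seen.

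Macrophage genes followed, with lower levels and a dependence on 1 array. Of 23 macrophage genes 22 were on the array and 18 tested, and 14 of these had their highest null mean in unsorted cells (77.8%, against 14.9% of all genes), with a median difference of 0.27. In 4 (22.2%, against 0.837% of all genes) the unsorted arrays lay above all sorted arrays: Tyrobp, Lyz2, Ctss and C1qc. For C1qc this was near the floor. It was at 4.59, 4.96 and 5.63 in unsorted arrays, detected on 2 of 3, and reached 4.58 in sorted arrays. Ctss, the lysosomal protease cathepsin S, was at 6.99, 7.03 and 8.07 in unsorted arrays and between 4.39 and 5.98 in sorted arrays (1.96 ± 0.38, adjusted p = 0.0865). Lyz2, lysozyme of phagocytes, was at 7.54, 8.01 and 9.54 against 4.64 to 7.44 (2.02 ± 0.61, adjusted p = 1). In both genes replicate 3 was the highest unsorted array by about 1 unit or more.

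The defining macrophage markers were dim in null unsorted cells. Adgre1, an adhesion receptor used to recognise mouse macrophages, was at 4.54, 4.97 and 7.08, so that replicates 1 and 2 lay among the sorted arrays (4.38 to 4.77) or just above them. Csf1r, the colony stimulating factor 1 receptor, was at 5.14, 4.83 and 5.69 against 4.52 to 5.18, and C1qa at 4.51, 4.87 and 5.27 against 4.39 to 5.04. C1qb was at 5.79, 5.98 and 7.49, overlapping stromal replicate 2 at 6.03. The mean level of the macrophage list was 5.70, 5.88 and 6.87 in the unsorted arrays and between 4.74 and 5.47 in the sorted ones. Without unsorted replicate 3 the count with the highest mean in unsorted cells fell from 14 to 9 and the median difference from 0.27 to 0.02.

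The count of leukocyte genes depended on replicate 3 as well, and that of antigen presentation genes did not. Of 19 tested leukocyte genes 13 had their highest mean in unsorted cells (68.4%), with a median difference of 0.36, and without replicate 3 the count was 7. Ptprc, the leukocyte antigen CD45, was at 5.11, 5.56 and 7.45 in unsorted arrays and reached 6.13 in stromal replicate 1, so the groups overlapped. Laptm5, a lysosomal protein of blood cells, was at 8.26, 8.92 and 10.06, and stromal replicate 1 at 8.43 lay within that range. Of 10 tested antigen presentation genes 7 had their highest mean in unsorted cells, with a median of 0.73, and the count was 7 or 8 when any 1 array was left out. H2-Aa, an MHC class II chain, was at 8.02, 8.63 and 9.66 against 6.33 to 7.68 in sorted arrays (1.79 ± 0.47, adjusted p = 0.608). Cd74, the class II invariant chain, was higher than in luminal (2.46, adjusted p = 0.0017) and stromal cells (1.83, adjusted p = 0.00364), and was 1.04 over basal cells (adjusted p = 0.145), where basal replicate 1 at 8.13 exceeded unsorted replicate 1 at 8.07. Replicate 3, the highest unsorted array for these genes, was also the one with the fibroblast mean of 9.66.

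**Figure D2:**
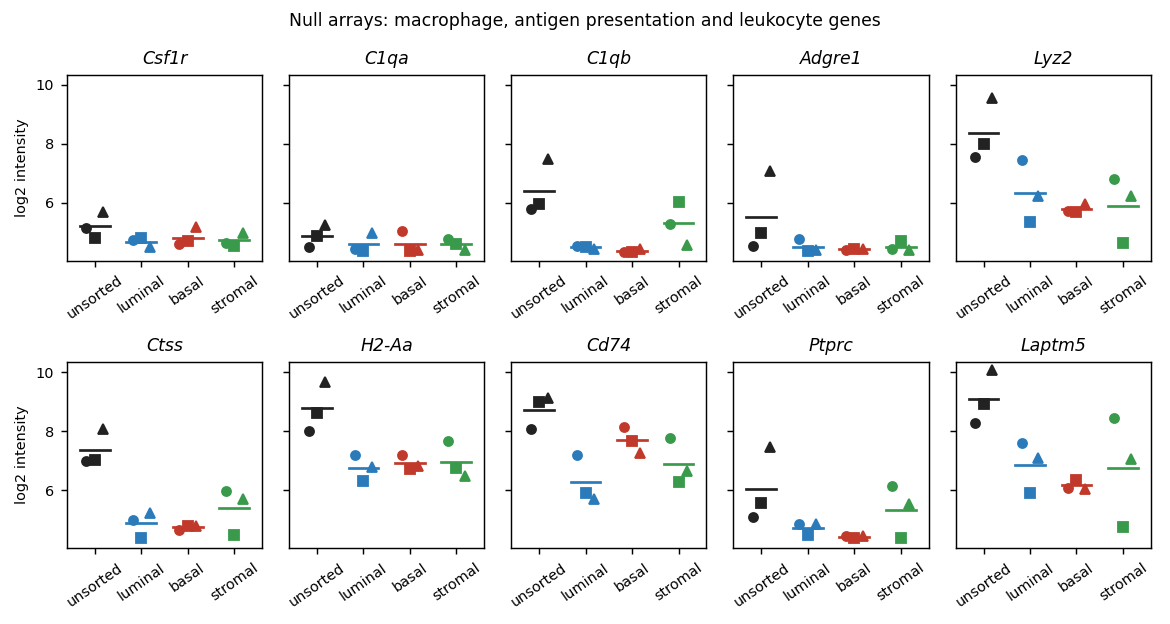
Log2 intensity on the 12 null arrays of macrophage, antigen presentation and leukocyte genes, with the populations on the x axis. Circles, squares and triangles are replicates 1, 2 and 3 and bars are group means. The triangle of unsorted replicate 3 is the highest unsorted point in each panel, for example 7.08 for Adgre1 and 7.45 for Ptprc. The other unsorted points of Adgre1 and Ptprc lie among the sorted points or close to them. For Lyz2, Ctss and H2-Aa all 3 unsorted points lie above the sorted points, as for 0.837% of all genes.

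Most other cell types had their highest levels in a sorted fraction. Pericyte genes, which mark the mural cells around capillaries, did so in 12 of 13 cases, 11 of them in stromal cells, with a median difference of -0.91. Rgs5, a regulator of G protein signalling in pericytes, was at 9.40, 9.67 and 8.67 in unsorted and 9.88, 9.77 and 9.72 in stromal arrays. It was 2.28 and 1.99 higher in unsorted than in luminal and basal cells (adjusted p = 0.00105 and 0.000918). Pdgfrb, the platelet-derived growth factor receptor of mural cells and fibroblasts, was lower than in stromal cells (-1.73, adjusted p = 2.5e-05). Of 17 skeletal muscle genes 14 had their highest mean in stromal cells, and 11 were lower in unsorted than in stromal cells (9.77% of all genes were). All 24 fibroblast genes were lower than in stromal cells, with a median of -1.92. Of them 17 were higher than in luminal cells (2.17% of all genes were) and 16 higher than in basal cells (5.04%).

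Adipocyte genes were not concentrated in the unsorted cells. Of 22 tested, 2 had their highest mean there, 10 in stromal and 8 in luminal cells, with a median difference of -0.28. Adipoq, the adipocyte hormone adiponectin, was at 4.59, 5.27 and 4.90 in unsorted arrays and 4.65, 6.93 and 5.54 in stromal arrays. The 2 genes, Fabp4 and Cd36, encode fatty acid carriers that capillary endothelium also makes. Which cells gave their signal here was not tested. Both had 3 unsorted arrays above all sorted arrays. Fabp4 was at 10.75, 11.06 and 10.96 in unsorted and at most 10.33 in sorted arrays (0.73 ± 0.40, adjusted p = 1), and Cd36 was at 10.06, 10.03 and 10.25 against at most 9.64 (0.52 ± 0.39, adjusted p = 1).

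Blood, lymph and nerve genes were mixed. Among lymphatic endothelial genes 1 of 6 had its highest mean in unsorted cells, with Lyve1, a hyaluronan receptor of lymphatic vessels, at 4.79, 5.09 and 5.58 in unsorted and 5.14, 5.41 and 6.45 in stromal arrays. So did 6 of 18 T cell genes, 2 of 6 natural killer genes, 2 of 9 B cell genes, 1 of 3 plasma cell genes, 2 of 7 granulocyte genes and 1 of 9 red cell genes. Median differences of these 6 lists lay between -1.42 and -0.10. Of lists that mark a cell state or skin, 4 of 14 interferon response, 4 of 24 immediate early and heat shock, 3 of 12 milk, 1 of 13 cell cycle and 1 of 7 skin keratinocyte genes had their highest mean in unsorted cells, where 14.9% of all genes did. Of 7 mast cell genes 5 had their highest mean in unsorted cells (71.4%, against 14.9% of all genes). In 2 (28.6%, against 0.837% of all genes) the unsorted arrays lay above all sorted arrays, Hdc and, near the floor, Tpsab1. The median difference of the list was 0.12 in null and 1.47 in WT cells. Hdc, the enzyme that makes histamine, was at 9.69, 9.68 and 10.09 against at most 8.80 in sorted arrays (1.69 ± 0.63, adjusted p = 1). The mast cell proteases Cpa3, Mcpt4 and Cma1 had mean levels of 5.28, 4.48 and 5.27 and differences of 0.73, 0.05 and -0.06. Schwann cell genes divided, 6 of 13 in unsorted and 4 in stromal cells.

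**Figure D3:**
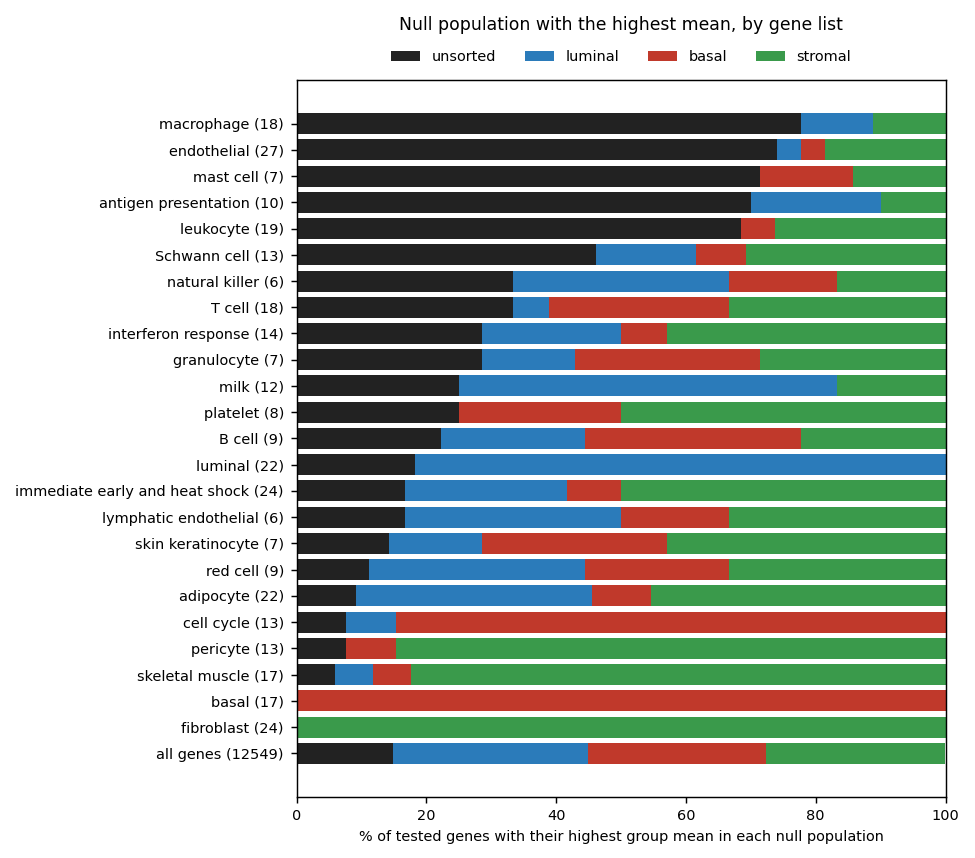
Share of the tested genes of each list (number tested in brackets) whose highest null group mean was in unsorted, luminal, basal or stromal cells, in percent, with all genes in the lowest bar. Unsorted cells hold 77.8% of macrophage and 74.1% of endothelial genes, 0% of basal and fibroblast genes and 14.9% of all genes. The list of plasma cell genes, with 3 tested, is not drawn.

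Genes outside the lists were also found above the sorted range. In 105 genes (0.837%) the 3 unsorted arrays lay above all 9 sorted arrays, and in 45 (0.359%) they lay below. Of the 105, 28 belonged to a list and 77 to none, and the highest sorted mean was in stromal cells for 53, luminal cells for 41 and basal cells for 11. Ccl4, a chemokine that attracts leukocytes, had a difference of 3.27 ± 0.80 (adjusted p = 0.414), at 7.85, 9.11 and 10.85 in unsorted arrays and at most 6.93 in sorted arrays. Its unsorted values differed among themselves by 3 units. Others outside the lists were Rgs1 (2.43), a G protein regulator of leukocytes, Tmem252 (2.27), Rasip1 (1.98), a protein of endothelial junctions and lumens, Upp1 (1.94), a uridine phosphorylase, Gpm6a (1.94), a membrane glycoprotein, Rbp7 (1.90), a retinol-binding protein, and Sox7 (1.43), a vascular relative of Sox17. None of these 8 genes passed in the main fit of all 24 arrays, without a block (adjusted p from 0.0876 to 1). They were named after their values were seen. With the replicate block Ccl4, Gpm6a, Rasip1, Tmem252 and Upp1 passed. Upp1 also passed without background correction, with the second deposited table and with median scaling. Tmem252 passed in the fit of the 12 null arrays. Sox7, Rasip1 or Upp1 passed when certain single WT arrays were left out. Rgs1 and Rbp7 passed in none of these fits. When each pairwise adjusted p had to pass on its own, all of the 8 genes except Rbp7 passed.

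Of the 3 fractions, luminal cells were separated from unsorted cells by the fewest genes. In unsorted cells 272 genes were higher and 28 (0.223%) lower than in luminal cells, 632 higher and 538 (4.29%) lower than in basal cells, and 1085 higher and 1226 lower than in stromal cells. The 3 comparisons share the unsorted arrays. Median scaling in place of quantile normalization gave 542 higher and 300 lower genes against basal cells, and 253 higher and 9 lower against luminal cells. With the replicate block 361 were higher and 73 lower than in luminal cells. Against luminal cells 139 were higher and 14 lower without unsorted replicate 3, and 164 higher and 22 lower without luminal replicate 3. Against stromal cells 728 were higher and 790 lower without unsorted replicate 1.

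The same comparison in WT cells, on 12 other arrays, gave 72 genes (0.574%) higher in unsorted cells than in every sorted fraction and 0 lower. Sele, Selp and Tyrobp were among both sets, which is 60% of the null and 4.17% of the WT genes, and all 5 null genes had a positive difference in WT cells. Sele differed by 2.20 ± 0.47 in WT cells (adjusted p = 0.0263), Selp by 2.02 ± 0.37 (adjusted p = 0.00675) and Tyrobp by 3.11 ± 0.36 (adjusted p = 6.31e-05). Csf2rb2 was at 1.32 (adjusted p = 0.0503). Flt1 was at 7.69, 7.67 and 7.03 in WT unsorted arrays and differed by 1.18 from WT stromal cells (adjusted p = 0.135), in which its mean was 6.28, against 4.62 in null stromal cells. Without WT stromal replicate 1 the WT count was 47, with array weights 124, and 0 among the arrays of the negative side, which has 1 array of each WT population.

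The median difference of the endothelial genes from the highest fraction was 1.07 in null and 1.05 in WT cells, and 22 of the 27 had their highest WT mean in unsorted cells. The levels themselves were higher in WT arrays 1 and 2, at list means of 8.34 and 8.24 in unsorted cells, than in WT replicate 3 at 7.23. Sorted WT arrays ranged from 5.59 to 7.27 for this list. Of all genes 0.574% passed in WT and 0.0398% in null cells. Of macrophage genes 11 of 18 passed in WT and 1 in null cells, and the medians were 2.22 and 0.27. For leukocyte genes 7 of 19 passed in WT and 0 in null cells, with medians of 1.45 and 0.36, and for antigen presentation genes 4 of 10 and 0, with medians of 1.46 and 0.73. WT unsorted arrays had macrophage list means of 7.93, 7.56 and 7.32, all above the null unsorted arrays.

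**Figure D4:**
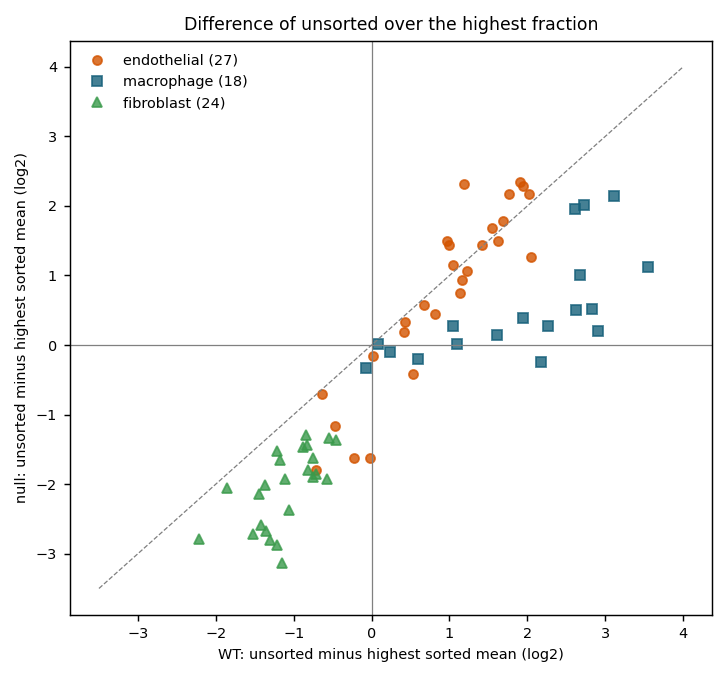
Each point is a gene of the endothelial, macrophage or fibroblast list, with the log2 difference of unsorted cells over the highest sorted mean in WT on the x axis and in null on the y axis, and equality dashed. Endothelial points lie on both sides of the dashed line, with medians of 1.05 and 1.07, whereas the macrophage points lie below it, with medians of 2.22 and 0.27.

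**Figure D5:**
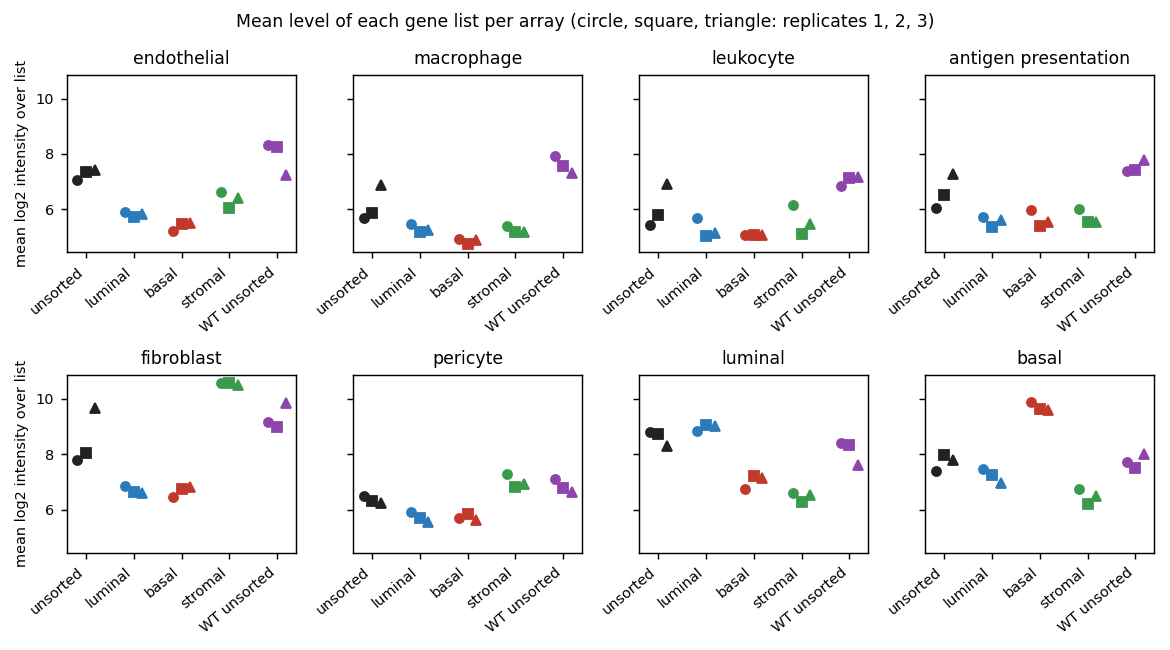
Mean log2 intensity over the tested genes of 8 lists on each null array and each WT unsorted array. Circles, squares and triangles are replicates 1, 2 and 3. Endothelial means of the null unsorted arrays are 7.05 to 7.42, above all null sorted arrays, and fibroblast means reach 9.66 in null unsorted replicate 3, against 7.80 and 8.03 in replicates 1 and 2.

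The difference between genotypes was tested directly, as the excess of unsorted cells over the mean of the 3 fractions in null minus that in WT cells. At an adjusted p under 0.05, 11 genes (0.0877%) had a smaller excess in null cells and 0 (0%) a larger one, and 723 passed at an unadjusted p under 0.05. Of the 11, 4 were macrophage genes: C1qc (-2.12 ± 0.31, adjusted p = 0.00476), C1qa (-2.02 ± 0.35), Timd4, a receptor for dying cells (-1.91 ± 0.35), and Csf1r (-1.54 ± 0.25). Timd4 was named after its values were seen. C1qc was at 7.94, 7.21 and 6.53 in WT unsorted arrays and at 4.59, 4.96 and 5.63 in null unsorted arrays. In all 11 genes the 3 WT unsorted arrays lay above the 3 null unsorted arrays. The test that picked them used the same arrays, so this order is a description and adds no support. Its share over all genes was not counted. Of the 27 endothelial genes 0 passed this test. The count was 3 without null unsorted replicate 1, 4 without replicate 2 and 3 without WT unsorted replicate 1. Without null unsorted replicate 3, 122 genes had a smaller and 15 a larger excess in null cells, and without WT unsorted replicate 3 there were 24 and 1. Array weights gave 27 smaller and 2 larger. It was 7 without null basal replicate 2, null basal replicate 3, WT luminal replicate 1 or WT luminal replicate 3, and 0 within the negative side of the split, where each WT population has 1 array. Genotype of the unsorted cells and that split overlap, since all 3 null unsorted and 1 of 3 WT unsorted arrays lie on its negative side, and the part of the split in the macrophage difference was not tested beyond this.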

How the data were processed

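RNA of luminal, basal, stromal and unsorted mammary cells was measured on Illumina bead arrays, each sample on 1 array and each group on 3, with groups taken from the labels. The deposited values are linear probe intensity without normalization, per the file headers, for 25697 probes. Each intensity has its own deposited detection p-value. The sources used here do not name the scanner software or earlier steps.

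With detection p-values as the guide to background, intensities were corrected with an offset of 16 and quantile normalized to log2 with neqc of limma 3.58.1 (R 4.3.3). Probes detected at p under 0.05 on at least 3 of 24 arrays were kept (17878). Symbols were updated through RefSeq (GRCm38.p6): 20733 were current, 3868 updated, 1060 kept, and 36 had become dates and were left out. A gene took its passing probe with the highest mean, giving 12549 genes.

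All 24 arrays entered a linear model of 8 group means (lmFit, eBayes), two-sided, with Benjamini-Hochberg adjustment over all genes and a threshold of 0.05. The p for unsorted cells against every fraction is the largest of 3, or 1 where signs differ. Its steps were tested on simulated data. The number of arrays limits the precision, with a median SE of 0.301. For a probe undetected throughout the compared fraction the text gives a lower bound (at least N-fold), taken against its own value or the lowest detected signal per array, whichever is higher.

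The members and the 25 gene lists were chosen with earlier results of these data known. Genes named are the called genes without overlap (up to 15 above, 6 below), each list's defining markers and its 3 genes of largest difference, the 5 genes of smallest p between genotypes, and the sort markers. Others are said to be named after their values were seen. Alternatives covered background, scaling, filters, arrays in the fit, weights, the unlabelled split, the call rule, the probe of a gene and each array left out. Endothelial promoters were matched by symbol, and with 13 of 27 genes matched no share over the list is given.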

Additional observations from a re-analysis of the deposited data

Results flagged for a closer look

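The excess of unsorted cells over the mean of the sorted fractions differed between genotypes for 11 genes, all lower in null than in WT cells by limma's test of the difference itself. The differences on the log2 scale were -2.54 for Fcna, the plasma lectin ficolin A, -2.12 for C1qc, -2.08 for Cd209d, a C-type lectin, and -2.02 for C1qa. They were -1.91 for Timd4, -1.66 for C3ar1, the receptor of complement C3a, -1.56 for LOC100048556, -1.54 for Csf1r, -1.47 for Tpsab1, a mast cell tryptase, -1.43 for OTTMUSG00000000971 and -1.35 for Clec4a1, a lectin receptor of myeloid cells. Timd4, C3ar1, LOC100048556 and Clec4a1 were named after their values were seen. Adjusted p of the 11 genes ranged from 0.00476 to 0.0411, and in each gene all 3 WT unsorted arrays exceeded all 3 null unsorted arrays. That order is a description, because the genes were picked by a test on the same arrays. Within the negative side of the split on the third principal component, with 1 WT array per population, the differences kept their sign, and 0 of the 11 passed.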

How the results depend on the processing

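No result changed sign among those with a call. The count of genes above every null fraction was 5, and it was 1 with no detection filter (17888 genes tested) and 32 when each of the 3 pairwise adjusted p had to pass separately. Leaving out 1 array gave 1 to 7. The luminal count was 164 within the negative side of the split on the third principal component and 153 to 382 with 1 array left out, and the basal and stromal counts were 784 to 1221 and 1518 to 2448. The WT count was 124 with array weights, 0 on the negative side, 138 by the pairwise rule and 47 to 90 with 1 array left out. Genes that differed between genotypes numbered 6 without background correction and 6 with the second deposited table, 2 with median scaling, 29 with array weights (2 of them larger in null cells), 0 on the negative side and 3 to 137 with 1 array left out (15 of the 137 larger in null cells). Of endothelial genes, 2 passed in the fit of 12 null arrays and on the negative side, and 3 by the pairwise rule. Of macrophage genes, 2 passed without background correction, with the second deposited table, with median scaling and by the pairwise rule, and 0 with no filter, in the fit of 12 arrays and on the negative side. Of antigen presentation genes 1 passed by the pairwise rule. Of all 12549 genes, 32 passed by the pairwise rule and 5 in the fit of the 12 null arrays. The count was 6 without background correction, with the second deposited table and with median scaling, and 1 of 17888 with no filter. With 1 array left out the highest mean was in unsorted cells for 20 to 21 endothelial, 9 to 15 macrophage, 7 to 15 leukocyte and 7 to 8 antigen presentation genes, and 1 to 1, 0 to 2, 0 to 0 and 0 to 0 of them passed. Without background correction the median difference over all genes was -0.18 and that of the endothelial list 0.56, against -0.33 and 1.07. The cause of these shifts was not tested. Null sorted arrays of the same number deviated together (correlations from 0.09 to 0.35) but null unsorted arrays did not deviate with them (-0.09 to 0.07), so the numbers were not read as pairs in null cells. With the replicate block 12 genes passed above every null fraction, 2 of them endothelial and 2 macrophage. It gave 91 genes in WT cells and 13 between genotypes. In WT cells same-numbered arrays did deviate together (correlations from 0.18 to 0.50), and the block changed no other call there by over 1.5 times. Signal near background limits what can be said of dim markers such as Adgre1 and C1qa.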
